A study of Rattus norvegicus with 12 samples.

Results

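The genes described are 7 transcription factors known for setting the phenotype of vascular smooth muscle cells, namely the Krüppel-like factors Klf2, Klf4, Klf5 and Klf6, the serum response factor Srf, its cofactor myocardin (Myocd) and the GATA factor Gata6. They were taken by name from the 22081 genes of the deposited table, with earlier results of these data known. All 7 were listed there and all 7 passed the filter on low counts that left 14825 genes for testing. RNA sequencing compared cultured primary aortic smooth muscle cells of Wistar rats in 4 groups of 3 libraries, 12 in all. Tsp1KO stretch and Tsp1KO static cells carried a CRISPR-Cas9 knockout of Thbs1, the gene of the matrix protein thrombospondin-1, while WT stretch and WT static cells kept the gene intact. Stretched cells received uniaxial cyclic stretch of 20% strain at 1.0 Hz after 24 h without serum, for a time that the labels do not give. Static cells were the unstretched counterpart and also had 24 h without serum. Cells of every group were grown in 20% serum at passages 5 to 8. Knockout cells were transfected, sorted for the GFP of the plasmid and grown out from single cells, and the number of clones is not stated, so an effect of the knockout and a difference between clones cannot be told apart. The labels do not state whether libraries sharing a group were grown as separate cultures, so p-values reflect variation among libraries that could be purely technical.

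Smooth muscle cells move between a contractile state, rich in actin, calponin and smooth muscle myosin, and a synthetic state that divides and makes matrix. Srf binds the CArG box, a short A and T rich element found near contractile genes and also near early response genes such as the Egr factors. Myocd joins Srf on contractile genes, ternary complex factors join it on early response genes, and Klf4 is known to hold contractile genes down and to compete with this machinery. Klf2 is best known as a factor switched on by blood flow in endothelium through the kinases MEKK3 and ERK5 and the MEF2 factors, Klf5 as a factor of dividing and embryonic smooth muscle, Klf6 as a factor induced by vessel injury, and Gata6 as the main GATA factor of vascular smooth muscle.

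The libraries held 16.8e6 to 38.0e6 exon reads. Levels are exon reads per 1e6 exon reads, scaled by TMM (CPM), fold changes are on the log2 scale with their SE, and a gene is called at a false discovery rate (FDR) under 0.05 in edgeR's quasi-likelihood test over all tested genes. The targeted Thbs1 averaged 556 ± 101 CPM in Tsp1KO static and 2661 ± 547 CPM in WT static cells, and 379 ± 83.6 CPM in Tsp1KO stretch and 1437 ± 342 CPM in WT stretch cells (SD, n = 3 each). The 4 libraries numbered 3 stood apart from those numbered 1 and 2, with 9.15% to 11.3% of gene reads in introns against 14.8% to 16.5%. Tsp1KO stretch library 3 also had 16.4% of exon reads on exon junctions, against 28.1% to 29.8% in the other libraries. The smooth muscle markers Acta2, Tagln, Cnn1, Myh11, Smtn, Lmod1 and Des were all detected, with summed levels of 2979 to 3980 CPM in Tsp1KO stretch, 3554 to 4467 CPM in Tsp1KO static, 4989 to 6120 CPM in WT stretch and 4415 to 5226 CPM in WT static libraries. Most of each sum came from Acta2 and Tagln, and Tagln averaged 2235 CPM in Tsp1KO static and 2237 CPM in WT static cells. Smtn was called higher in Tsp1KO than in WT cells, stretched (0.38 ± 0.08, FDR 0.00592) and static (0.69 ± 0.08, FDR 8.87e-05). Acta2 and Lmod1 were called lower in both comparisons, and Cnn1 in stretched cells. Des stayed at 2.08 to 2.88 CPM in the group means. Those of the late marker Myh11 were 20.1 CPM in Tsp1KO stretch, 26.4 in Tsp1KO static, 17.5 in WT stretch and 16.3 CPM in WT static cells. In bulk RNA of this kind, fewer cells that express a gene and less of its RNA per cell cannot be told apart.

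The upstream sequence of Srf is shown because Srf protein is known to act on its own gene and on the early response genes described below. The RefSeq promoter table, on the rat build GRCr8, matched 5 of the 7 factors. An exact CArG box was searched on both strands in the 250 bases before each start, with no other motif searched, and 501 of 33469 promoters in that table (1.5%) held one. Among the 5 matched factors, Srf and Klf6 did. The Srf window lies at chr9:21923826-21924075 on the plus strand, and its 2 CArG boxes, in capitals, sit at positions -81 to -72 and -61 to -52, counted from -1 just before the start.
Srf upstream region: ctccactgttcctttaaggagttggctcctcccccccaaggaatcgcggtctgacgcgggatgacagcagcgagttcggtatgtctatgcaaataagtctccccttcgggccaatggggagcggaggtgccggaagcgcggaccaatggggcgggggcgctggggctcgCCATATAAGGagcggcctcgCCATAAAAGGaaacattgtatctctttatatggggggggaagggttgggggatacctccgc

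Short windows around the box, 10 bases on either side, let the elements of Srf, Klf6 and 2 early response genes of Srf be compared. The box of Klf6 starts at position -201, those of the actin gene Actg1 and of the zinc finger gene Egr2 at -90 and -83. In the early response genes listed below, 3 of the 11 with a promoter in the table held a box within this distance (Actg1, Egr1 and Egr2), and in the contractile genes 0 of 14 did, which says only that these letters are not in this window.
Srf, first box: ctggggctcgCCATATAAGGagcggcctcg
Srf, further box: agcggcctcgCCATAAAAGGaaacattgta
Klf6 box: aataggaaggCCTTTAATGGagaggctcgg
Actg1 box: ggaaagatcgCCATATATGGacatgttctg
Egr2 box: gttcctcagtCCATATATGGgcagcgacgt

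The order of the 7 factors by level per exon length, given by the deposited RPKM (reads scaled to exon length and to library size), differed between the genotypes. In Tsp1KO stretch cells Klf4 led with 52.2 ± 5.01 RPKM, followed by Gata6 with 21.6 ± 2.67, Srf with 8.98 ± 1.10, Klf6 with 7.64 ± 0.759, Klf2 with 2.60 ± 0.595, Myocd with 2.19 ± 1.24 and Klf5 with 0.923 ± 0.135 RPKM (SD, n = 3). The libraries of Srf and Klf6 overlapped there, as did those of Klf2 and Myocd and those of Myocd and Klf5. Tsp1KO static cells had the same order of genes, with Srf, at 11.8 ± 1.04 RPKM, clear of Klf6, at 7.38 ± 0.112 RPKM, and Klf2 clear of Myocd, while Myocd again overlapped with Klf5. In WT stretch cells Gata6 led with 32.2 ± 2.11 RPKM, followed by Srf with 17.2 ± 0.903, Klf6 with 7.48 ± 0.556, Klf2 with 3.99 ± 0.476, Klf4 with 2.30 ± 0.328, Klf5 with 0.518 ± 0.0453 and Myocd with 0.508 ± 0.257 RPKM. In WT static cells Gata6 (32.2 ± 2.04 RPKM) and Srf (18.1 ± 1.78 RPKM) were again on top, Klf2 (7.78 ± 0.831 RPKM) and Klf6 (7.55 ± 0.618 RPKM) did not differ beyond their spread, and Klf5 and Myocd overlapped at the bottom. Among all 22081 genes, Klf4 ranked 1148 by mean RPKM in Tsp1KO stretch, 842 in Tsp1KO static, 9617 in WT stretch and 8773 in WT static cells.

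**Figure D1:**
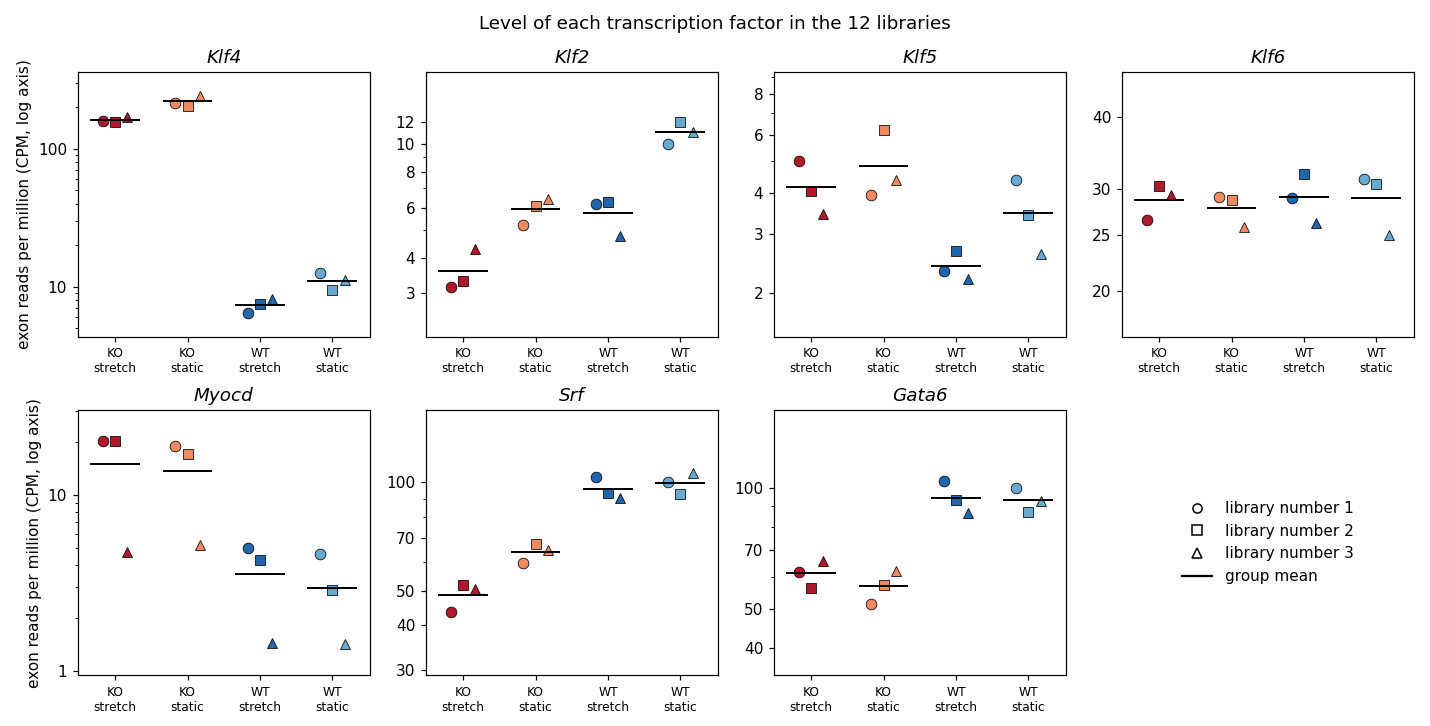
CPM (log axis, range set per gene) of each factor in the 12 libraries, with Tsp1KO stretch, Tsp1KO static, WT stretch and WT static from left to right, a symbol per library number and a bar at the group mean. The Klf4 libraries of both knockout groups lie at 158 to 241 CPM, far above the WT libraries at 6.51 to 12.5 CPM, and the Myocd libraries numbered 3 lie below the others of their group.

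Tsp1KO cells had a 20.0-fold to 22.1-fold higher level of Klf4, the repressor of contractile genes. The contractile cofactor Myocd had log2 fold changes of similar size in both conditions. They were 2.19 ± 0.69 in static cells (FDR 0.0452) and 2.08 ± 0.68 in stretched cells (FDR 0.0516). Only the static value passed the threshold, narrowly. Srf, Gata6 and Klf2 fell in the knockout under both conditions, with log2 fold changes of -0.98 to -0.62. Klf5 was higher in stretched knockout than in stretched WT cells, and Klf6 passed the test in neither condition. In knockout comparisons, values given under stretch are Tsp1KO stretch against WT stretch, and those in static cells are Tsp1KO static against WT static. There, rose and fell mean higher and lower in Tsp1KO than in WT cells. Changes from static to stretched cells are called changes with stretch. Between Tsp1KO static and WT static cells 5 of the 7 factors were called, 2 higher and 3 lower, where 20.8% of all tested genes were called, 12.1% higher and 8.66% lower, and in 5 of the 7 the libraries of the 2 groups did not overlap, as in 34.8% of all tested genes. Between Tsp1KO stretch and WT stretch cells 5 of the 7 were called, 2 higher and 3 lower, against 20.6% of all tested genes, 11.9% higher and 8.73% lower, and 5 of the 7 did not overlap, against 33.6%. The median log2 fold change over the 7 was -0.06 in static and -0.01 in stretched cells, beside 0.01 and -0.00 over all tested genes, since the factors moved in both directions.

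Klf4 (ENSRNOG00000016299, chromosome 5 from 72283313 to 72287669 in Rnor_6.0, 5 exons) is a zinc finger factor that represses smooth muscle differentiation genes and also serves in reprogramming to pluripotency. Its libraries 1, 2 and 3 held 160.4, 158 and 170.5 CPM in Tsp1KO stretch cells and 6.51, 7.47 and 8.15 CPM in WT stretch cells. In static cells the values were 216, 205 and 241 CPM in Tsp1KO and 12.5, 9.43 and 11.2 CPM in WT. Every knockout library lay at least 10 times above every WT library. Klf4 was higher in Tsp1KO than in WT cells by a log2 fold change of 4.46 ± 0.14 under stretch (FDR 5.23e-09). In static cells it was higher by 4.32 ± 0.13 (FDR 5.98e-09). These values placed Klf4 at rank 56 and rank 59 of 14825 genes by size of change. The authors' deposited table gives signed folds of 22.1 under stretch and 20.0 in static cells. Of the Klf4 exon reads 85.3% mapped uniquely, so part of the count is uncertain, and in Tsp1KO stretch library 3 only 4235 of 6175 were unique, against 3595 of 3998 and 2869 of 3221 in the other libraries of that group. With unique reads alone the log2 fold changes were 4.39 and 4.36.

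Klf2 (ENSRNOG00000014205, chromosome 16 from 19223087 to 19225037, 3 exons), the flow-responsive factor, moved the other way from Klf4. Tsp1KO stretch libraries held 3.17, 3.33 and 4.31 CPM and WT stretch libraries 6.18, 6.29 and 4.76 CPM. Tsp1KO static libraries held 5.22, 6.09 and 6.43 CPM and WT static libraries 10.03, 11.96 and 11.03 CPM. In neither condition did the groups overlap, though Tsp1KO stretch library 3 came close to WT stretch library 3. Klf2 fell, with a log2 fold change of -0.67 ± 0.17 under stretch (FDR 0.0155) and -0.89 ± 0.17 in static cells (FDR 0.00241). The call under stretch was lost when any of Tsp1KO stretch libraries 1 and 2 or WT stretch libraries 1 and 2 was left out, with FDR values of 0.0583 to 0.0643, and when only the libraries of the compared groups were fitted (FDR 0.0781), and that in static cells held without each of the 12 libraries. Markers of endothelium, the cell type in which Klf2 is best known, summed to 4.86 to 8.03 CPM in Tsp1KO stretch, 5.80 to 7.22 CPM in Tsp1KO static, 7.14 to 7.64 CPM in WT stretch and 10.6 to 12.98 CPM in WT static libraries, with Cldn5 at 0 everywhere, Cdh5 at 0.328 to 0.560 CPM in the group means and most of the sum in Tek. Their part in the Klf2 values was not tested.

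Klf5 (ENSRNOG00000008785, chromosome 15 from 83703791 to 83722921, 6 exons) promotes growth of smooth muscle and was a low-level gene here. Libraries held 5.02, 4.06 and 3.45 CPM in Tsp1KO stretch and 2.32, 2.68 and 2.20 CPM in WT stretch cells, without overlap. In static cells they held 3.95, 6.22 and 4.37 CPM in Tsp1KO and 4.38, 3.42 and 2.62 CPM in WT, and the groups overlapped. Klf5 was higher in Tsp1KO stretch than in WT stretch cells, with a log2 fold change of 0.80 ± 0.25 (FDR 0.0408). The static value of 0.48 ± 0.24 missed the threshold (FDR 0.218). The call was lost when any of Tsp1KO stretch libraries 1 and 2, the 3 WT stretch libraries or WT static library 2 was left out, with FDR values of 0.0595 to 0.152. Klf6 (ENSRNOG00000016885, chromosome 17 from 67887939 to 67945037, 15 exons), which activates genes of TGF-beta signalling, ranged from 26.5 to 30.4 CPM in Tsp1KO stretch, 25.8 to 29.1 CPM in Tsp1KO static, 26.2 to 31.9 CPM in WT stretch and 25.01 to 31.3 CPM in WT static libraries. All 4 groups overlapped. The 95% interval of its log2 fold change was -0.26 to 0.24 for Tsp1KO stretch against WT stretch and -0.31 to 0.19 for Tsp1KO static against WT static cells.

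Myocd (ENSRNOG00000003669, chromosome 10 from 51683540 to 51778986, 16 exons) encodes the Srf cofactor that is selective for heart and smooth muscle. Its libraries held 20.2, 20.1 and 4.75 CPM in Tsp1KO stretch cells and 4.96, 4.25 and 1.43 CPM in WT stretch cells. In static cells they held 18.9, 16.97 and 5.15 CPM in Tsp1KO and 4.58, 2.88 and 1.41 CPM in WT. Library 3 was the lowest of every group, by log2 values of -1.36 to -2.09 relative to the mean of libraries 1 and 2. Within each library number the knockout level was higher, in 3 of 3 pairs under stretch and in 3 of 3 in static cells. Across all libraries the log2 fold change was 2.19 ± 0.69 in static cells (FDR 0.0452) and 2.08 ± 0.68 under stretch (FDR 0.0516), and the stretched groups overlapped through Tsp1KO stretch library 3 and WT stretch library 1. With library number as a block, 6 of the 7 factors were called under stretch, where 37.3% of all tested genes were, and 5 of the 7 in static cells, where 37.6% were. Myocd then rose in both conditions, by 2.16 ± 0.16 in static (FDR 4.05e-07) and 2.02 ± 0.15 in stretched cells (FDR 4.65e-07). Among libraries 1 and 2 alone the values were 2.21 in static cells (FDR 2.00e-06) and 2.13 under stretch (FDR 1.55e-06). Without the block, the static call was lost when any of 9 libraries was left out (all but Tsp1KO stretch 3, Tsp1KO static 3 and WT stretch 3), with FDR values of 0.0562 to 0.148, while leaving out Tsp1KO stretch 3 or Tsp1KO static 3 brought the stretched value past the threshold, at 0.0132 and 0.0332.

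Srf (ENSRNOG00000018232, chromosome 9 from 16737642 to 16747225, 7 exons) encodes the factor that binds the CArG boxes printed above. Libraries held 43.7, 51.7 and 50.4 CPM in Tsp1KO stretch cells and 103.7, 93.2 and 90.3 CPM in WT stretch cells. In static cells they held 59.6, 67.5 and 64.8 CPM in Tsp1KO and 100.4, 92.8 and 105.9 CPM in WT. All knockout libraries were below all WT libraries, and the stretched knockout libraries were the lowest of all. For Srf the log2 fold change was -0.98 ± 0.10 under stretch (FDR 2.40e-05) and -0.64 ± 0.10 in static cells (FDR 0.000614). Gata6 (ENSRNOG00000023433, chromosome 18 from 2416552 to 2446338, 11 exons), which supports the contractile state of vascular smooth muscle, held 61.9, 56.4 and 65.7 CPM in Tsp1KO stretch and 103.6, 93.1 and 86.4 CPM in WT stretch libraries. In static cells the values were 51.6, 57.3 and 62.2 CPM in Tsp1KO and 99.96, 87.1 and 92.5 CPM in WT. Again no knockout library reached a WT library. Gata6 fell by 0.62 ± 0.11 under stretch (FDR 0.00122) and by 0.71 ± 0.11 in static cells (FDR 0.000502) on the log2 scale. The knockout calls of Klf4, Srf and Gata6 held without each of the 12 libraries.

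**Figure D2:**
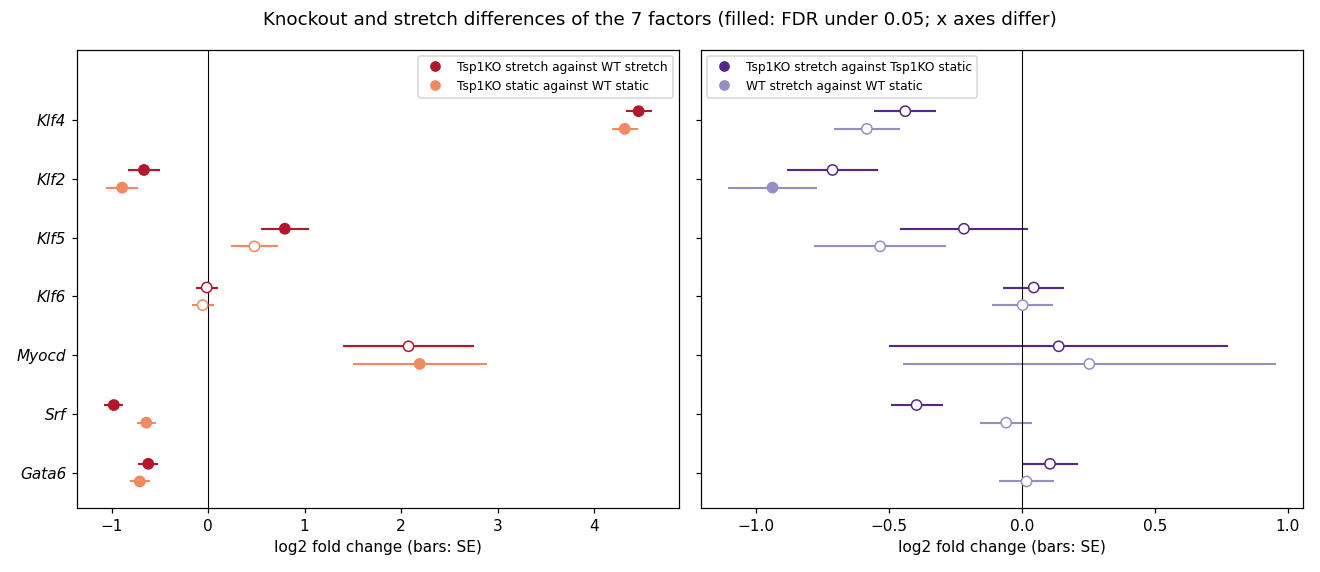
Log2 fold change of the 7 factors with its SE, for the knockout against WT (left, under stretch and static) and for stretch against static (right, in Tsp1KO and in WT cells), with filled points where the FDR was under 0.05. Klf4 lies at 4.46 and 4.32 in the knockout comparisons on the left. On the right Klf4, Klf2, Klf5 and Srf lie left of 0 in both genotypes, with Srf at -0.40 in Tsp1KO and -0.06 in WT cells. Klf2 in WT cells is the filled point there.

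The deposited folds and the fits used here differed in which factors passed at the edges. In the authors' deposited table the FDR for Tsp1KO stretch against WT stretch was 0.0616 for Klf2, 0.0602 for Klf5 and 0.00412 for Myocd, so the first 2 missed the threshold there and Myocd passed it. Markers of other cell types moved with the knockout. The fibroblast markers Pdgfra, Lum, Dcn, Col14a1, Dpt and Pi16 summed to 881 to 1087 CPM in Tsp1KO stretch and 1083 to 1242 CPM in Tsp1KO static libraries, against 316 to 339 CPM in WT stretch and 317 to 341 CPM in WT static libraries, mostly through Col14a1 and Lum, while Pdgfra and Dpt had lower means in the knockout and Dcn stayed under 1 CPM in every group mean. Osteochondrogenic markers summed to 196 to 273 CPM in Tsp1KO stretch and 238 to 269.6 CPM in Tsp1KO static libraries, against 716 to 1012 CPM in WT stretch and 907 to 1183 CPM in WT static libraries, mostly through Acan, while Sox9 and Runx2 had higher means in the knockout. Epithelial and mesothelial markers summed to 43.3 to 61.0 CPM in Tsp1KO stretch and 58.2 to 70.6 CPM in Tsp1KO static libraries, against 30.2 to 36.9 CPM in WT stretch and 32.6 to 39.6 CPM in WT static libraries, mostly through Krt8. Of these markers, Wt1 and Epcam had lower means in both knockout groups, and Wt1 was called lower in static cells (-1.53 ± 0.44, FDR 0.0284). Leukocyte markers stayed at or under 2.45 CPM in sum in every library. The part of these cells or programs in the values of the 7 factors was not tested.

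Stretch went with lower Klf2 in WT cells, and with lower Klf2 and Klf4 when both genotypes were averaged. In WT cells 1 of the 7 factors was called, Klf2, which was lower, against 0.742% of all tested genes, 0.277% higher and 0.465% lower. With library number as a block 2 were called, Klf2 and Klf4, against 6.37%. DESeq2 called 2 (2.57% of genes), limma on RPKM 1 (0.513%), and libraries 1 and 2 alone gave 2 (3.54%). In Tsp1KO cells 0 of the 7 were called in edgeR's quasi-likelihood test, against 0.796% of all tested genes, 0.209% higher and 0.587% lower. There 3 of the 7, namely Klf2, Klf4 and Srf, had an unadjusted p under 0.05 (7.78% of all genes did), the same 3 fell with the block (4.42% of genes called in either direction) and under DESeq2 (2.09%), while limma on RPKM called 0 (0.621%) and libraries 1 and 2 alone gave 3 (2.94%). Averaged over the genotypes 2 of the 7 were called, Klf2 and Klf4, both lower, where 2.75% of all tested genes were called, 0.884% higher and 1.87% lower, and with the block Srf joined them (13.5%). The median log2 fold change of the 7 with stretch was -0.22 in Tsp1KO and -0.06 in WT cells, beside -0.00 and 0.01 over all tested genes.

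Klf2 differed between stretched and static libraries without overlap in both genotypes, at 3.17 to 4.31 CPM in Tsp1KO stretch against 5.22 to 6.43 CPM in Tsp1KO static, and at 4.76 to 6.29 CPM in WT stretch against 10.03 to 11.96 CPM in WT static cells. Within library numbers 1, 2 and 3 the stretch difference was -0.72, -0.87 and -0.58 in Tsp1KO and -0.70, -0.93 and -1.21 in WT cells, in log2 CPM. The stretched library was the lower in all pairs of both genotypes. In the fit it was -0.71 ± 0.17 in Tsp1KO (FDR 0.119, and 0.0322 with the block), -0.94 ± 0.17 in WT (FDR 0.0278) and -0.82 ± 0.12 averaged over both (FDR 0.00363). The WT call was lost when any of the 6 WT libraries or Tsp1KO static library 2 was left out, with FDR values of 0.0529 to 0.114, and 0 members were called when WT libraries alone were fitted. The averaged call held without each of the 12 libraries. The endothelial marker Tek, given beside Klf2 above, had 4.21 CPM in Tsp1KO stretch, 4.12 CPM in Tsp1KO static, 4.90 CPM in WT stretch and 8.87 CPM in WT static cells, and its part was not tested.

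Klf4 had lower levels in stretched than in static cells of both genotypes, around base levels that lay 20.0-fold apart in static cells. Tsp1KO stretch libraries lay at 158 to 170.5 CPM and Tsp1KO static libraries at 205 to 241 CPM, and WT stretch libraries lay at 6.51 to 8.15 CPM and WT static libraries at 9.43 to 12.5 CPM, with no overlap in either genotype. Groups did not overlap in 3 of the 7 factors in Tsp1KO cells, where 12.5% of all tested genes did not, and in 2 of the 7 in WT cells, where 15.4% did not. The log2 fold change of Klf4 was -0.44 ± 0.12 in Tsp1KO (FDR 0.176, and 0.00552 with the block), -0.58 ± 0.12 in WT (FDR 0.0690, and 0.00502 with the block) and -0.51 ± 0.08 averaged over both (FDR 0.00849). The stretched library was the lower in 3 of 3 pairs of each genotype. The averaged call held without each of the 12 libraries.

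**Figure D3:**
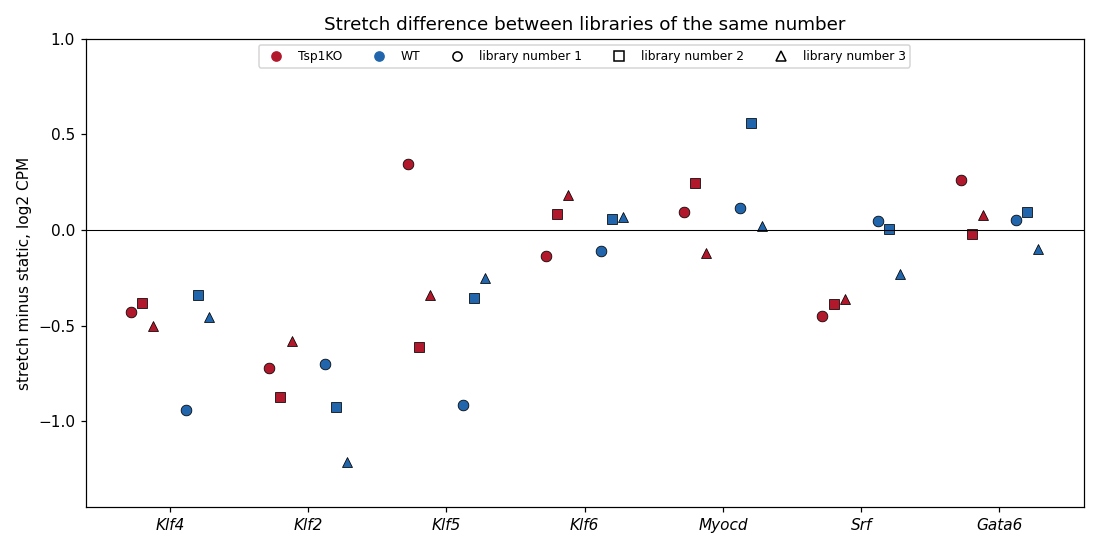
Stretched minus static level in log2 CPM within each library number, for the 7 factors in Tsp1KO (left of each pair, red) and WT cells (right, blue). All points of Klf4 and Klf2 lie under 0 in both genotypes, and those of Srf lie at -0.45 to -0.36 in Tsp1KO and at -0.23 to 0.05 in WT cells.

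Srf showed a stretch difference in the knockout cells that fell short of the threshold without the block. Tsp1KO stretch libraries held 43.7 to 51.7 CPM and Tsp1KO static libraries 59.6 to 67.5 CPM, without overlap, and WT stretch libraries held 90.3 to 103.7 CPM and WT static libraries 92.8 to 105.9 CPM, which overlapped. The log2 fold change was -0.40 ± 0.10 in Tsp1KO (FDR 0.138, and 0.0203 with the block) and -0.06 ± 0.10 in WT cells (FDR 0.963), and averaged over both it was -0.23 ± 0.07 (FDR 0.132, and 0.0249 with the block). The remaining factors were not called with stretch in either genotype. Klf5 had -0.22 ± 0.24 in Tsp1KO and -0.53 ± 0.25 in WT cells, Myocd 0.14 ± 0.64 and 0.25 ± 0.70, Klf6 0.04 ± 0.11 and 0.00 ± 0.11, and Gata6 0.11 ± 0.10 and 0.02 ± 0.10, in the same order of genotypes. The 95% interval for Gata6 was -0.13 to 0.34 in Tsp1KO and -0.21 to 0.25 in WT cells, and for Myocd it was as wide as -1.26 to 1.54 and -1.29 to 1.79.

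Whether the stretch response differed between Tsp1KO and WT cells was tested as an interaction. It called 0 of the 7 factors and 0% of all tested genes in edgeR's quasi-likelihood test, and the block (0.0135%), DESeq2 (0.0398%), limma (0%) and libraries 1 and 2 alone (0.0201%) gave 0 of the 7 as well. At an unadjusted p under 0.05 there was 1 of the 7, Srf, and 2.27% of all genes. The Srf response was lower in Tsp1KO than in WT cells by a log2 difference of -0.34 ± 0.14, with a 95% interval of -0.64 to -0.03, an unadjusted p of 0.0326 and an FDR of 1.00. For Klf2 the difference was 0.23 ± 0.24 (interval -0.29 to 0.75) and for Klf4 0.14 ± 0.17 (interval -0.23 to 0.52), which leaves room for a difference of either sign. Contractile genes of Srf and Myocd had a median interaction of -0.34 beside -0.01 over all tested genes, with 0 of 19 called.

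Reads in introns gave a further measure of the same genes, tested in the same way after the exon values had been seen. No annotated gene overlaps any of the 7 factors, and the strand setting of the counting is not given. Between Tsp1KO stretch and WT stretch cells 5 of the 7 were called on intron reads, against 8.88% of 15577 tested genes, and between Tsp1KO static and WT static cells 1 was, Klf4, against 7.70%. With the block 4 were called in static cells, against 16.1% of genes, since Myocd (0.99 ± 0.31, FDR 0.00490 with the block), Gata6 (-0.56 ± 0.18, FDR 0.0384) and Klf5 (0.91 ± 0.27, FDR 0.0460) joined Klf4. Klf4 intron reads were higher by 3.96 ± 0.34 under stretch (FDR 1.68e-05) and 4.31 ± 0.34 in static cells (FDR 9.60e-06), close in size to the exon values. In Tsp1KO stretch against WT stretch cells Srf was lower, with -1.01 ± 0.18 (FDR 0.00377), as were Gata6, with -0.85 ± 0.18 (FDR 0.0101), and Klf2, with -2.14 ± 0.48 (FDR 0.0142). Myocd was higher there by 1.09 ± 0.31 (FDR 0.0450), less than its exon value of 2.08 ± 0.68. Klf5, which was higher on exon reads in Tsp1KO stretch than in WT stretch cells, had -0.03 ± 0.27 on intron reads.

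Klf2 intron reads were few. Libraries held 6, 6 and 11 in Tsp1KO stretch, 23, 37 and 67 in Tsp1KO static, 26, 39 and 45 in WT stretch, and 47, 39 and 62 in WT static cells. The Tsp1KO stretch libraries were the lowest of all, below every other library. The log2 fold change of stretch against static in Tsp1KO cells was -2.32 ± 0.47 on intron reads (FDR 0.311, and 0.00300 with the block), beside -0.71 ± 0.17 on exon reads, and in WT cells it was -0.73 ± 0.39 on intron reads (FDR 1.00). In the stretch comparisons 0 of the 7 were called on intron reads without the block, where 0.0321% of genes were called in Tsp1KO, 0.0193% in WT cells and 0.167% averaged over both. With the block Klf2 was the 1 factor called in Tsp1KO cells, against 0.193% of genes, and the 1 called averaged over both genotypes, against 1.22%, where its log2 fold change was -1.53 ± 0.31 (FDR 0.103, and 0.000947 with the block). The difference of the stretch response between Tsp1KO and WT cells was -1.59 ± 0.62 for Klf2 introns (unadjusted p 0.0238, FDR 1.00). Klf6 was mostly intronic, with 73.3% of its gene reads in introns over a span of 57099 bases.

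**Figure D4:**
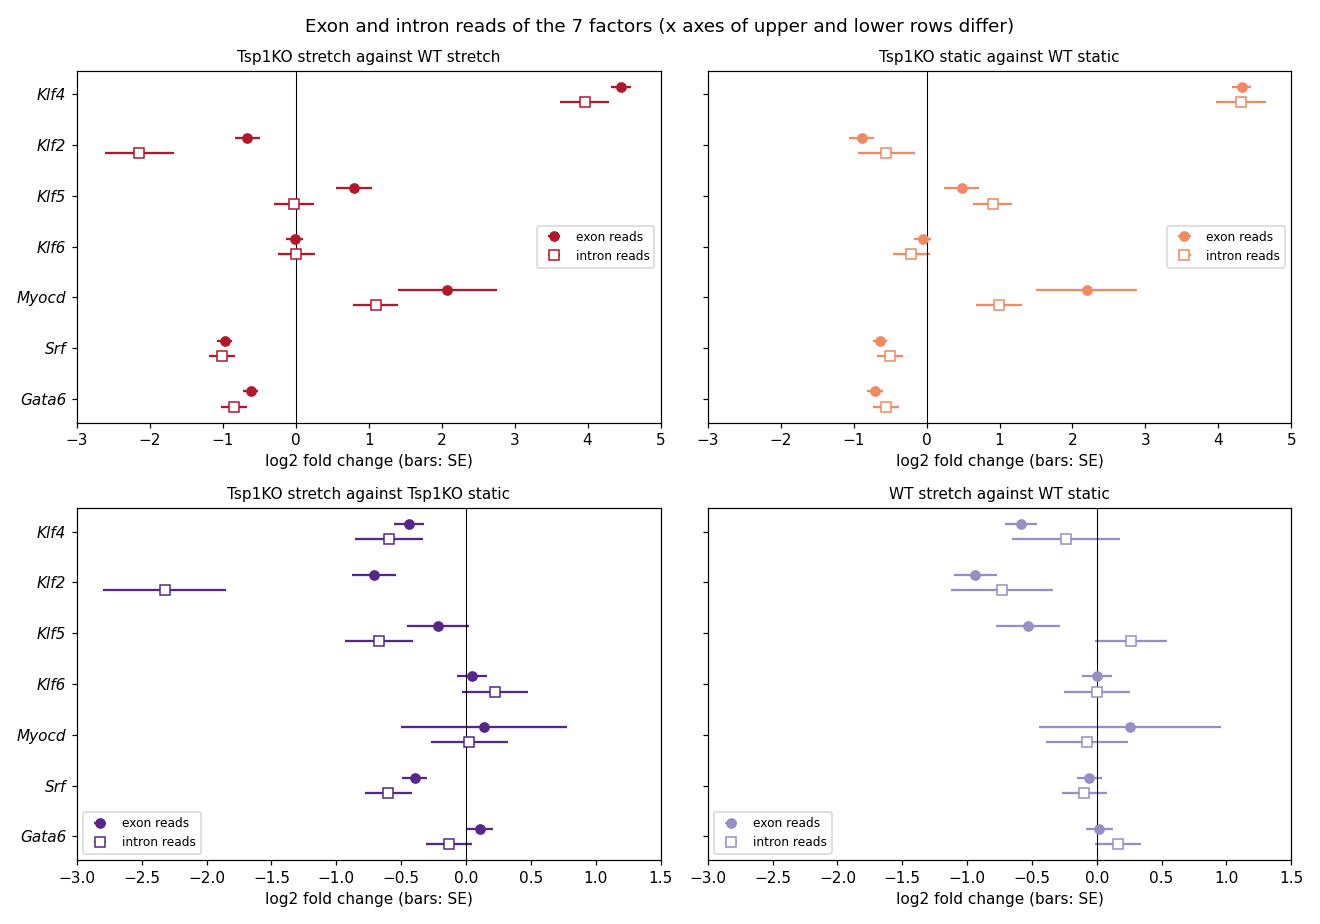
Log2 fold change with its SE from exon reads (filled circles) and intron reads (open squares) of the 7 factors, for Tsp1KO stretch against WT stretch, Tsp1KO static against WT static, Tsp1KO stretch against Tsp1KO static, and WT stretch against WT static. Klf4 lies at 3.96 on intron and 4.46 on exon reads in the first panel, while Klf2 in the lower left panel lies at -2.32 on intron reads and -0.71 on exon reads.

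For the gene lists that follow, the shares of all tested genes called are the same as for the factors, namely 20.6% in Tsp1KO stretch against WT stretch, 20.8% in Tsp1KO static against WT static, 0.796% with stretch in Tsp1KO and 0.742% with stretch in WT cells, and with the block for library number 37.3%, 37.6%, 4.42% and 6.37%. Contractile genes controlled by Srf and Myocd moved in both directions in the knockout. Of 19 tested, 3 rose and 6 fell in Tsp1KO stretch against WT stretch cells, and 4 rose and 2 fell in Tsp1KO static against WT static cells, where the block gave 6 and 5. The list median was -0.25 under stretch and -0.00 in static cells, beside -0.00 and 0.01 over all tested genes. Acta2, smooth muscle actin, had 915 ± 110 CPM in Tsp1KO stretch and 2268 ± 138 CPM in WT stretch cells (log2 fold change -1.31 ± 0.12, FDR 8.56e-06), and 1255 ± 114 CPM in Tsp1KO static cells (-0.79 ± 0.11 against WT static, FDR 0.000412). Actg2, the enteric smooth muscle actin, was lower in Tsp1KO stretch than in WT stretch cells (log2 fold change -1.43 ± 0.23). Synpo2, an actin-binding protein of the Z-disc, rose by 3.85 ± 0.37 under stretch and 3.65 ± 0.37 in static cells, and Aoc3, a surface amine oxidase of smooth muscle, by 2.75 ± 0.15 and 2.57 ± 0.14. The myosin kinase gene Mylk rose in static knockout cells (0.90 ± 0.20, FDR 0.00711). With stretch, 1 of 19 fell in Tsp1KO cells, the actin nucleator Lmod1 (-0.51 ± 0.08, FDR 0.0205), and with the block 7 fell, while in WT cells 1 rose, the calponin gene Cnn1 (0.75 ± 0.14, FDR 0.0347), and with the block 2 rose and 1 fell. The list median with stretch was -0.26 in Tsp1KO and 0.04 in WT cells.

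Among early response genes of Srf more rose than fell in the knockout, while Srf itself fell. Of 12 tested, 5 rose and 1 fell in Tsp1KO stretch against WT stretch cells, and 6 rose and 1 fell in Tsp1KO static against WT static cells, with list medians of 0.42 and 0.52. Egr2, a zinc finger factor with a CArG box printed above, had 5.09 ± 0.742 CPM in Tsp1KO stretch and 0.778 ± 0.0682 CPM in WT stretch cells. In static cells it had 8.33 ± 1.26 CPM in Tsp1KO and 1.68 ± 0.213 CPM in WT. Its log2 fold changes were 2.70 ± 0.20 under stretch (FDR 2.21e-06) and 2.32 ± 0.19 in static cells (FDR 4.86e-06). Actg1, whose printed box has the same letters, had 2862 ± 250 CPM in Tsp1KO stretch and 3282 ± 353 CPM in WT stretch cells. Its static levels were 3445 ± 290 CPM in Tsp1KO and 3316 ± 413 CPM in WT. A link of box and level was not tested. The AP-1 component Fosl1 rose by 1.43 ± 0.13 and 1.64 ± 0.13, and Egr1 by 0.88 ± 0.13 and 0.89 ± 0.13, under stretch and in static cells. Egr3 rose in static knockout cells (1.08 ± 0.21, FDR 0.00312). The matricellular gene Ccn1 went the other way, at 102 ± 9.59 CPM in Tsp1KO stretch and 259 ± 22.1 CPM in WT stretch cells (-1.34 ± 0.11, FDR 3.41e-06). With stretch, 2 of 12 fell in Tsp1KO cells, Egr1 (-0.74 ± 0.13) and Ccn1 (-0.66 ± 0.10), and 6 with the block, and 2 fell in WT cells, Egr2 (-1.10 ± 0.20) and Egr1 (-0.73 ± 0.13).

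Partners of Srf other than Myocd were changed in 4 of 12 tested genes in each knockout comparison, 1 higher and 3 lower, where 20.6% of all tested genes were called under stretch and 20.8% in static cells. The homeobox factor Prrx1 rose by 1.73 ± 0.17 under stretch and 1.88 ± 0.17 in static cells, and the LIM protein Fhl2 fell, with -0.89 ± 0.12 and -1.05 ± 0.12. Msx2, a homeobox factor that opposes myocardin, fell, with -1.24 ± 0.26 and -1.12 ± 0.26. Csrp2, a LIM protein that bridges Srf and Gata6, was lower in Tsp1KO stretch than in WT stretch cells (-1.09 ± 0.17) and was the single partner called with stretch in WT cells, where it rose by 1.15 ± 0.17, while in Tsp1KO cells 0 of 12 were called. With the block 1 rose and 1 fell in Tsp1KO and 3 rose and 1 fell in WT cells. Mrtfb was not analysed here.

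Of 16 other Krüppel-like and SP factors tested, 2 rose in Tsp1KO stretch against WT stretch cells, and 2 rose and 1 fell in Tsp1KO static against WT static cells, where 20.6% and 20.8% of all tested genes were called. The block gave 7 and 9 calls, where 37.3% and 37.6% of all genes were called. With stretch 0 of 16 were called in either genotype, and with the block 2 fell in Tsp1KO and 1 fell in WT cells. The metabolic factor Klf15 had 13.5 ± 1.28 CPM in Tsp1KO stretch and 5.80 ± 0.632 CPM in WT stretch cells (1.22 ± 0.18, FDR 0.00043), and rose by 0.92 ± 0.17 in static cells. Klf10, induced by TGF-beta, rose by 0.85 ± 0.09 under stretch and 0.70 ± 0.09 in static cells, and Sp2 fell by 0.30 ± 0.10 in static cells. Klf15 fell with stretch averaged over both genotypes, by 0.72 ± 0.12 (FDR 0.0101). The axis from MEKK3 and ERK5 to MEF2, which acts upstream of Klf2 and Klf4, had 1 of 12 genes called in each knockout comparison, the class II deacetylase Hdac5, lower by log2 values of -0.61 ± 0.10 under stretch and -0.48 ± 0.10 in static cells, with 6 and 7 calls under the block. Its list median was -0.16 under stretch and -0.12 in static cells. The list mixes kinases and MEF2 factors with the deacetylases Hdac5 and Hdac7, so this median does not measure activity of the axis. Of the 12, 0 were called with stretch in either genotype, and with the block 2 fell in Tsp1KO and 3 fell in WT cells.

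Genes known as flow-response targets of Klf2 and Klf4 in endothelium had 6 tested members. In each knockout comparison 3 rose and 1 fell. The chemokine Ccl2 rose by 2.30 ± 0.12 under stretch and 2.43 ± 0.12 in static cells, the adhesion receptor Vcam1 by 1.502 ± 0.09 and 1.37 ± 0.09, and thrombomodulin (Thbd), an anticoagulant receptor, by 2.09 ± 0.10 and 1.49 ± 0.10. With stretch, 3 of 6 fell in Tsp1KO cells, among them the endothelin gene Edn1 (-0.82 ± 0.15) and Thbd (-0.49 ± 0.10), and Thbd fell in WT cells, at 6.94 ± 0.524 CPM in WT stretch and 14.8 ± 1.41 CPM in WT static cells, where the block gave 2 lower genes. The list median with stretch was -0.35 in Tsp1KO and -0.06 in WT cells, beside -0.00 and 0.01 over all tested genes.

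Around Gata6, 4 genes rose and 1 fell of 8 tested in each knockout comparison. The Notch ligand Jag1 had 54.5 ± 9.32 CPM in Tsp1KO stretch and 349 ± 77.1 CPM in WT stretch cells (-2.68 ± 0.19, FDR 1.39e-06), and fell by 2.67 ± 0.19 in static cells. Sema3c and its receptor component Plxna2, both reported Gata6 targets in the developing outflow tract, rose by 1.99 ± 0.28 and 1.57 ± 0.30 under stretch and by 2.20 ± 0.28 and 1.46 ± 0.31 in static cells. The related factor Gata2 rose by 1.22 ± 0.16 under stretch and 0.92 ± 0.16 in static cells. With stretch 0 of 8 were called in either genotype, and with the block 1 fell in each.

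Reported targets of Klf4, Klf5 and Klf6 split in the knockout, with 3 higher and 1 lower of 9 tested under stretch and 3 higher and 2 lower in static cells. The cell cycle inhibitor Cdkn1a, activated by Klf4, rose by 0.99 ± 0.12 under stretch and 1.07 ± 0.12 in static cells. The receptor Tgfbr2 rose by 0.91 ± 0.14 and 0.83 ± 0.14, and Col1a1, the main fibrillar collagen chain, fell, with -0.71 ± 0.17 and -0.93 ± 0.18. Pdgfa, a Klf5 target, was lower in Tsp1KO static than in WT static cells by 0.67 ± 0.16. Cyclin D1 (Ccnd1) was higher in Tsp1KO stretch than in WT stretch cells by 0.71 ± 0.09. In WT cells Ccnd1 was the single target called with stretch (-0.64 ± 0.09), and in Tsp1KO cells 0 of 9 were, while with the block 2 fell in each genotype. Genes of the synthetic state had 4 higher and 2 lower of 11 tested under stretch and 5 higher and 1 lower in static cells. The growth factor Ereg rose by 3.91 ± 0.27 and 3.33 ± 0.25, the collagen Col8a1 by 2.14 ± 0.18 and 1.93 ± 0.18, and the matrix protein Mgp by 1.58 ± 0.31 and 1.74 ± 0.31. With stretch 0 of 11 were called in either genotype, and with the block 0 in Tsp1KO cells, while 2 rose and 2 fell in WT cells. Among 12 other factors of smooth muscle phenotype, 1 rose and 3 fell under stretch and 1 rose and 2 fell in static knockout cells, led by Hand2 with 0.638 ± 0.367 CPM in Tsp1KO stretch and 4.55 ± 0.482 CPM in WT stretch cells (-2.77 ± 0.44, FDR 0.000728). The block gave 2 higher and 5 lower under stretch and 3 higher and 4 lower in static cells. With stretch 0 of these 12 were called in either genotype, and with the block 1 fell in Tsp1KO and 2 fell in WT cells.

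**Figure D5:**
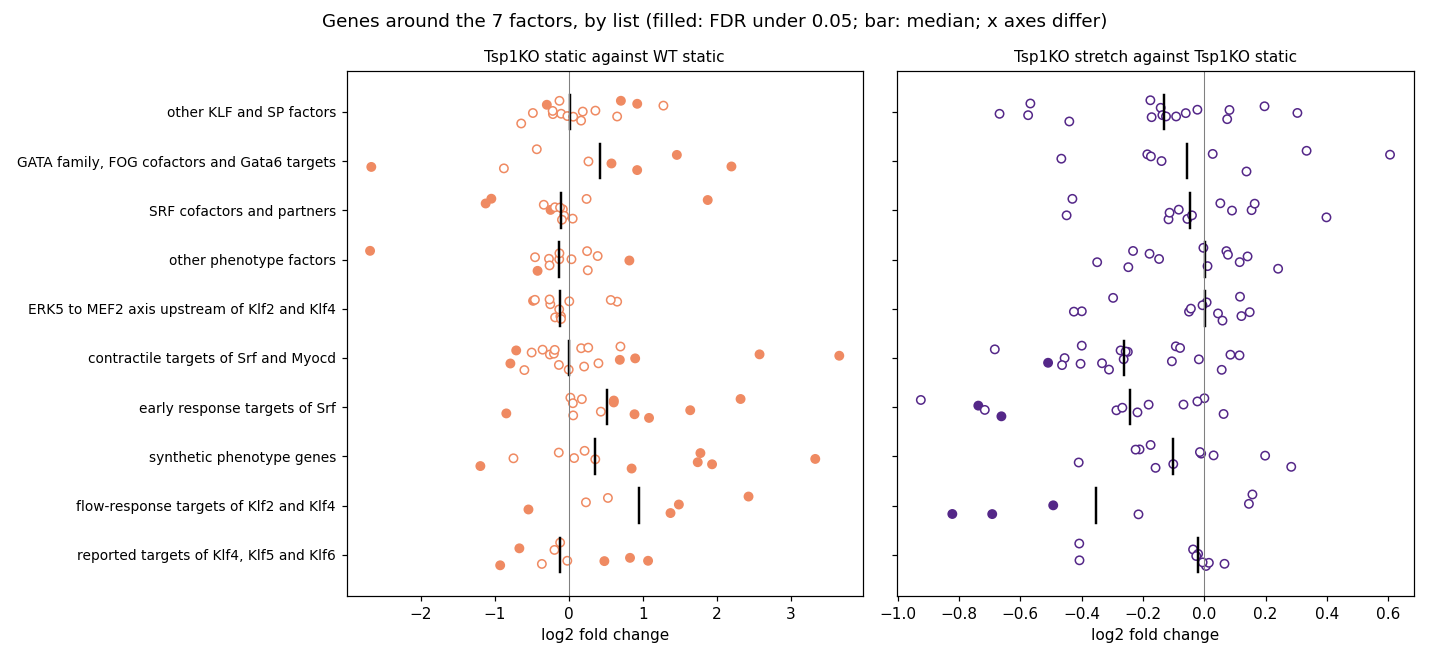
Log2 fold change of every tested gene of the 10 lists around the 7 factors, for Tsp1KO static against WT static (left) and Tsp1KO stretch against Tsp1KO static cells (right), with filled points at an FDR under 0.05 and a bar at the list median. The medians of the early response and flow-response lists lie at 0.52 and 0.95 on the left, and those of the contractile and flow-response lists at -0.26 and -0.35 on the right.

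The genes whose pattern was most like each factor were found by Pearson's r of log2 CPM over the 12 libraries among 9149 well-expressed genes. The 2 genotypes form separate clusters and all genes share the libraries' depth. For a factor that differs between the genotypes, r can therefore rank genes by that difference, and it is given as a description. Klf6 hardly differed between them, with log2 fold changes of -0.06 in static and -0.01 in stretched cells. Myocd libraries also spread within every group, as given above, and r can follow that spread. The source of r was not tested for any factor. For Klf4 the closest were Srpx (r = 0.999), Medag (r = 0.998) and Aass (r = 0.997), with Srpx at 82.5 CPM in Tsp1KO stretch, 95.7 CPM in Tsp1KO static, 7.87 CPM in WT stretch and 10.4 CPM in WT static cells. For Srf they were Ccn1 (r = 0.99), Lmod1 (r = 0.98) and Actn4 (r = 0.98), of which Ccn1 and Lmod1 are in the lists of its targets above. For Gata6 they were Six5, Mex3d and Furin (r = 0.98 to 0.99), for Myocd Gnptab, Plcb4 and Tlr4 (r = 0.99 each), for Klf2 Fv1, Prag1 and Dmpk (r = 0.94 to 0.96), for Klf5 Vangl2, Nectin1 and Tysnd1 (r = 0.94 each), and for Klf6 Ap5m1, Gnai1 and Mbd4 (r = 0.82 to 0.88).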

How the data were processed

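RNA was extracted with TRIZOL, poly(A) RNA was selected from 500 ng, and directional libraries were read as paired ends of 36 bases on a NextSeq 500, per the labels' protocols. The authors mapped reads to Rnor_6.0 with CLC Genomics Workbench 12.0, per the labels. Trimming, strand setting and annotation release are not given in the sources used here. The deposited counts are whole numbers of exon, unique exon, junction and intron reads per gene, per the file headers. RPKM, deposited beside the counts, scales reads to exon length and library size, per the file headers. The authors' deposited fold change is a signed score, negative where the level is lower, and its p-value column is a false discovery rate.

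Total exon counts, which include reads with several matches, went into edgeR 4.0.16 (R 4.3.3, filterByExpr with a minimum count of 10, TMM scaling, 4 group means over 12 libraries, 8 residual degrees of freedom, quasi-likelihood F test, Benjamini-Hochberg over 14825 genes). Whether library numbers 1 to 3 pair the groups was checked by correlating the deviations from group means. Same-numbered libraries gave r = 0.181 to 0.261 for number 1, 0.135 to 0.280 for number 2 and 0.432 to 0.581 for number 3 (6 pairs each). Libraries of different numbers gave -0.427 to 0.308 (36 pairs), a range that reaches past all pairs of numbers 1 and 2. Only number 3 stood clear, so this check does not show that numbers 1 and 2 pair the libraries. The block for all numbers was fitted all the same. Its result stands beside a factor's value where it changes the call and beside a list's count where it moves it by over 1.5 times. Alternatives were other scalings, DESeq2 1.42.0, limma 3.58.1 on log2(RPKM + 0.1), unique reads, no filter, libraries 1 and 2 alone, the compared groups alone and each library left out. Intron counts, without and with the block, were added after the exon values had been seen. The script was tested on simulated data, with 50 genes changed at each size in each comparison of 2 groups. It called 2% to 22% of 1.5-fold, 48% to 58% of 2-fold and 80% to 84% of 4-fold changes. A factor that was not called may therefore still differ by such small folds. The 7 genes, the lists, the marker genes and the tests were chosen with earlier results of these data known. All 7 factors are named in every comparison, and of each list up to 4 genes of largest change past the threshold. Single values of some list genes are not reported here, though the genes stay in the list counts. Promoter sequences and starts are RefSeq's, on GRCr8, and gene positions are on Rnor_6.0.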

Additional observations from a re-analysis of the deposited data

How the results depend on the processing

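Of 42 values (7 factors in 6 comparisons) 13 were called, 9 of these kept their call without each of the 12 libraries, and 1 changed sign in any setting, Klf5 in Tsp1KO stretch against WT stretch cells on intron reads (-0.025). Beyond the calls printed beside the results above, on exon and on intron reads, the block for library number changed no other call of a factor. The cause of the changes below was not tested. The number of factors called with stretch in WT cells was 2 under DESeq2, 2 with the block, 2 in libraries 1 and 2 only, 0 in the compared groups only and 0 on intron reads. In Tsp1KO cells it was 3 under DESeq2, 3 with the block and 3 in libraries 1 and 2 only. On intron reads it was 1 for Tsp1KO static against WT static cells and 0 for stretch averaged over both genotypes. Leaving out 1 library gave 3 to 6 factors for Tsp1KO stretch against WT stretch cells and 0 to 1 for WT stretch against WT static cells.

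Of all genes, with the block, in libraries 1 and 2 only, and on intron reads, Tsp1KO static against WT static gave 5569, 4739 and 1199 calls, and Tsp1KO stretch against WT stretch gave 5531, 4985 and 1384. Stretch in WT cells gave 944, 528 and 3, stretch in Tsp1KO cells 656, 439 and 5, and stretch averaged over both 2001, 1201 and 26. The interaction gave 2 with the block and 3 in libraries 1 and 2 only. DESeq2 called 332 genes with stretch in WT cells, 288 in Tsp1KO cells, 760 averaged and 7 for the interaction. The compared groups only gave 10 in WT and 0 in Tsp1KO cells, and no filter gave 76 in Tsp1KO cells. Leaving out 1 library gave 23 to 118 in WT, 24 to 122 in Tsp1KO cells and 234 to 359 averaged.

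The other changes of sign were in values not called. Klf6 turned to 0.0078 (unique reads), 0.026 (limma) and 0.0081 (introns) in Tsp1KO stretch against WT stretch cells, to -0.019 (upper quartile), -0.012 (limma) and -0.032 (libraries 1 and 2) with stretch in WT cells, to -0.021 with stretch in Tsp1KO cells and -0.027 averaged (libraries 1 and 2 for both). Gata6 turned to -0.0059 (upper quartile) and -0.00097 (limma) with stretch in WT cells, and Srf to 0.018 there (libraries 1 and 2). On intron reads Klf5 turned to 0.26 and Myocd to -0.077 with stretch in WT cells, Gata6 to -0.13 in Tsp1KO cells and Myocd to -0.026 averaged, and the interaction of Klf2 turned to -1.59, Klf4 to -0.35, Klf5 to -0.93, Myocd to 0.10 and Gata6 to -0.29. Leaving out 1 library, Klf6 ranged from -0.15 to 0.0015 in Tsp1KO static against WT static, -0.083 to 0.038 in Tsp1KO stretch against WT stretch, -0.092 to 0.071 with stretch in WT and -0.0091 to 0.098 in Tsp1KO cells, -0.026 to 0.14 in the interaction and -0.024 to 0.057 averaged. Myocd ranged from -0.093 to 0.75 with stretch in WT and -0.26 to 0.57 in Tsp1KO cells, -0.61 to 0.32 in the interaction and -0.0054 to 0.44 averaged, and Gata6 from -0.055 to 0.077 with stretch in WT cells. Depth limits Klf2, Klf5, WT Klf4 and WT Myocd, with 34 to 303 exon reads per library.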
